A study of Mus musculus with 24 samples.

Results

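The 10 genes described here encode chaperones and proteases of the mitochondrion: Hspa9, Hspd1, Hspe1, Lonp1, Clpp, Clpx, Dnaja3, Trap1, Afg3l2 and Yme1l1. They were taken by symbol from a table of 24421 genes, and all 10 were found and passed the filter on low counts that left 13761 genes for testing. Most mitochondrial proteins are made in the cytosol and threaded unfolded through the import channels. Matrix HSP70 pulls them in, HSP60 with its lid HSP10 and the mitochondrial HSP90 help them fold, and proteases of the matrix and the inner membrane remove those that fail. In mammalian cells, mRNAs of these proteins are known to be induced by stress inside mitochondria, with ATF4, ATF5 and CHOP named as regulators.

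Polyadenylated RNA was sequenced from MIN6 cells, a mouse insulinoma line that makes insulin and is grown in 22.2 mM glucose. The cells carried a plasmid for EIF2A fused to GFP (EIF2A) or for GFP alone, so that transfection and GFP were common to all groups. EIF2A is an initiation factor able to deliver initiator tRNA, and is a different protein from eIF2α. Each construct was given DMSO vehicle (0 h) or 1 µM thapsigargin, an inhibitor of the pump that fills the endoplasmic reticulum (ER) with calcium, for 1 or 3 h, which made 6 groups of 4 libraries. The labels do not say what share of cells took up the plasmid, nor whether the replicates were separate cultures, so p-values measure the spread between these libraries, which may be technical.

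The mRNA of the plasmid gene went against the labels in replicate 1. Eif2a was at 80.3, 96.9 and 104 CPM (counts-per-million, scaled by TMM) at 0, 1 and 3 h in the libraries labelled EIF2A replicate 1, against 269, 361 and 358 CPM in those labelled GFP replicate 1. In replicates 2 to 4 it was at 134 to 209 CPM in EIF2A libraries and 77.8 to 102 CPM in GFP libraries. Replicate 1 also stood apart over the genes as a whole. Between libraries of a group, the chi-square per degree of freedom was 67.4 to 151 for pairs with replicate 1. Among replicates 2 to 4 it was 1.32 to 20. SEs and p-values without replicate 1 therefore measure the spread of libraries that lay close together. Groups keep their labels here, and results are given with and without replicate 1. Within a construct, libraries of 1 number deviated together from their group means over all genes (r from 0.675 to 0.956), so the number was also used as a block for the time comparisons. Depth was 10.5 to 22.1 M counts in EIF2A libraries and 16.7 to 22.2 M in GFP libraries. The 10 genes held 0.108 to 0.204% of counts, and the lowest count of any of them in a library was 450. All 12 beta cell markers were present, summing to 45300 to 124000 CPM. Prss2 and Amy2a5 of acinar cells were at 0 in every library, while Gcg, an alpha cell hormone, was at 138 to 921 CPM and Krt7, a duct keratin, at 298 to 650 CPM. In a bulk sample, fewer cells of a type and less RNA per cell cannot be told apart.

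Divided by exonic length and averaged over the 24 libraries, the level of Hspa9 was 99.3 CPM per kb. Clpp (75.5), Hspd1 (72.9) and Hspe1 (63.2 CPM per kb) came next, followed by Lonp1 at 46.5 CPM per kb. Dnaja3 (28.3), Clpx (24.2), Trap1 (24.1) and Yme1l1 (19.2 CPM per kb) were lower, and Afg3l2 was lowest at 9.75 CPM per kb. The ranges over libraries of neighbours in this order overlapped in every case, least for Yme1l1 (12.5 to 25.3 CPM per kb) and Afg3l2 (7.52 to 12.9 CPM per kb). The order differed between groups. In EIF2A cells at 0 h Clpp (83.2 ± 16.1 CPM per kb) and Hspe1 (70.2 ± 3.52) averaged more than Hspa9 (66.9 ± 8.05), while in GFP cells at 0 h Hspa9 (76.2 ± 21.5), Hspd1 (68.9 ± 3.67) and Hspe1 (66.9 ± 7.13) averaged more than Clpp (57.3 ± 1.32 CPM per kb, SD, n = 4). Clpx varied most over libraries, with a 3.08-fold range of its level, and Dnaja3 least, with a 1.30-fold range. The summed level of the 10 mRNAs averaged 1220 ± 52.9, 1554 ± 22.7 and 1712 ± 56.8 CPM in EIF2A cells at 0, 1 and 3 h, and 1293 ± 163, 1581 ± 191 and 1736 ± 158 CPM in GFP cells (SD, n = 4).

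**Figure D1:**
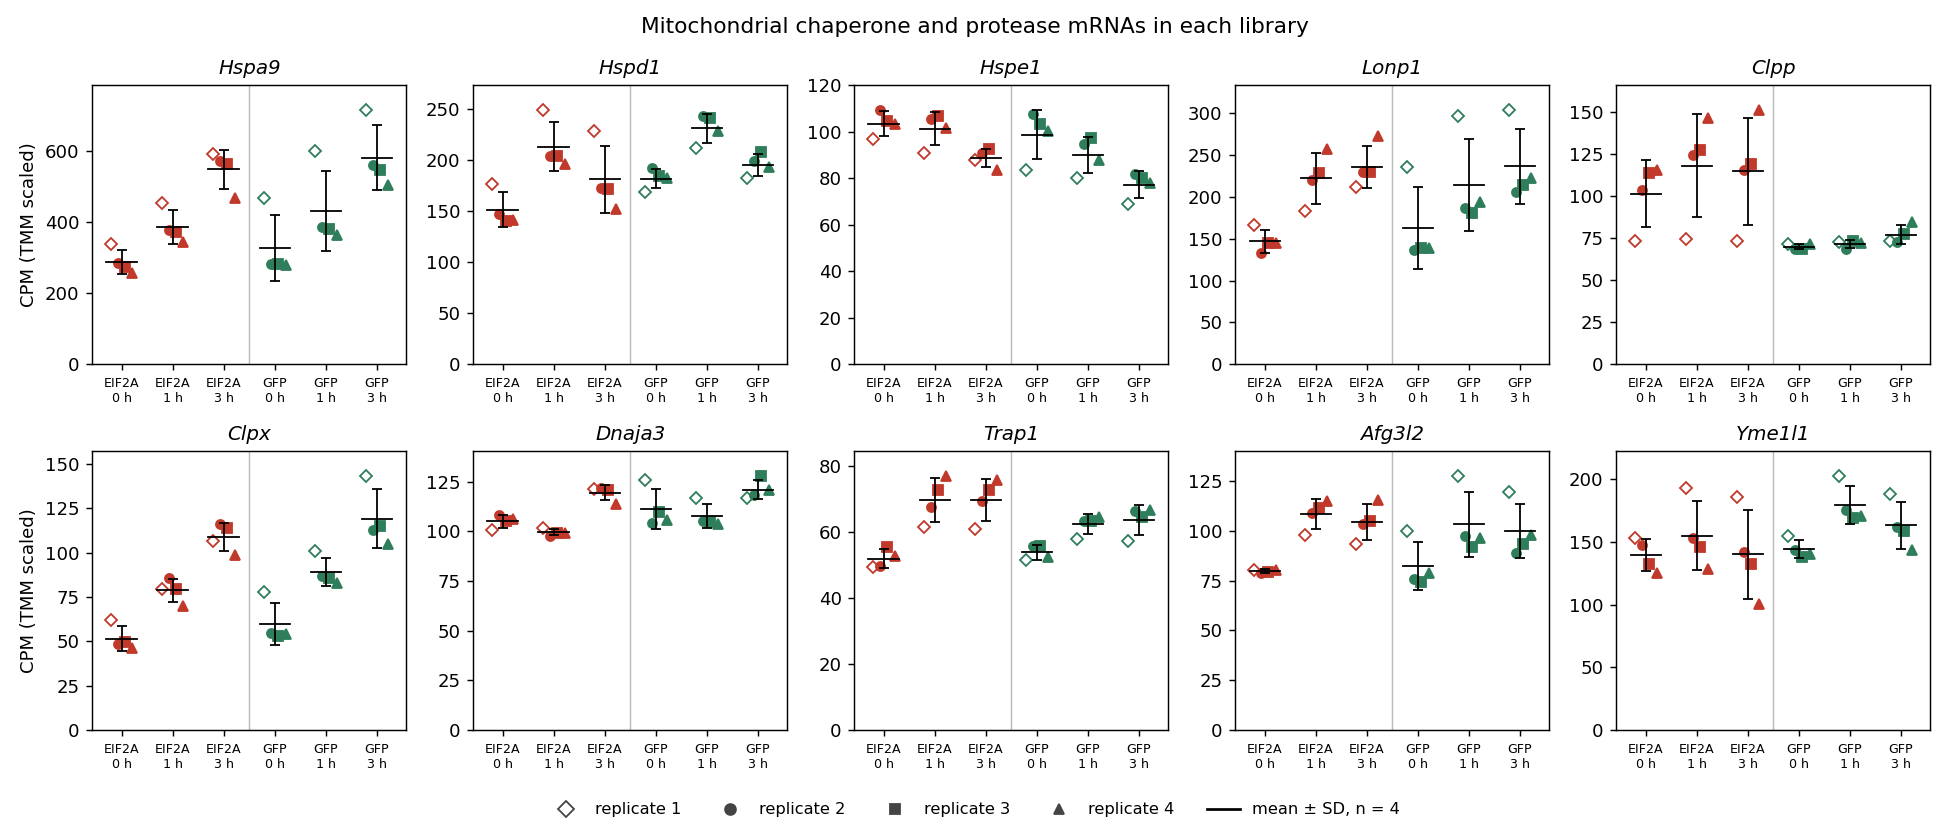
Level of each of the 10 mRNAs in every library, in CPM scaled by TMM on axes that start at 0, with EIF2A groups left of GFP groups and the time after thapsigargin under each. Open diamonds are replicate 1, filled symbols replicates 2 to 4, and the black line with its bar is the mean ± SD of 4 libraries. Clpx and Hspa9 climb with time in both constructs, Hspe1 is lowest at 3 h, and Clpp of EIF2A replicate 1 lies with the GFP libraries.

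After thapsigargin more of these mRNAs rose than fell in both constructs, with Clpx and Hspa9 changed most at 3 h, and Hspe1 fell at 3 h. At 3 h, 6 of the 10 rose and 1 fell in EIF2A cells by edgeR's quasi-likelihood test (adjusted p under 0.05), where 36.2% of all genes were called (19.6% rose and 16.6% fell). In GFP cells 4 rose and 1 fell at 3 h, where 33.0% of all genes were called (18.4% rose and 14.6% fell). At 1 h, 5 rose and none fell in EIF2A cells, where 10.5% of genes were called (6.55% rose and 3.94% fell). In GFP cells 2 rose and none fell at 1 h, where 8.18% were called (5.78% rose and 2.39% fell). The median log2 fold change of the 10 was 0.43 at 1 h and 0.32 at 3 h in EIF2A cells, beside -0.02 and -0.01 over all genes tested. In GFP cells it was 0.32 and 0.21, beside -0.01 and -0.00 over all genes.

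The counts were higher with the replicate number as a block and without replicate 1. With the block, 7 rose at 1 h and 8 rose and 1 fell at 3 h in EIF2A cells, where 45.3% and 66.2% of all genes were called. In GFP cells the blocked counts were 7 higher and 1 lower at 1 h, and 9 higher and 1 lower at 3 h, beside 44.6% and 67.1% of all genes. Without replicate 2, 3 or 4 fewer were called than over all 4 replicates, which is not a result about the members. With libraries left out, the count over all genes also went as low as 139 at 1 h and 2736 at 3 h in EIF2A cells, from 1444 and 4985. In GFP cells it went as low as 91 and 2348, from 1125 and 4543. Without replicate 1, the counts in EIF2A cells were 7 higher and 0 lower at 1 h and 8 higher and 1 lower at 3 h, beside 42.0% and 62.6% of all genes. In GFP cells they were 7 higher and 1 lower at 1 h and 6 higher and 1 lower at 3 h, beside 39.4% and 63.0%. The summed beta cell markers, led by Ins2 and Iapp, moved with time too, at 57000 to 67200 CPM in EIF2A cells at 3 h against 95900 to 116000 CPM at 0 h, and at 45300 to 66600 CPM in GFP cells at 3 h against 85400 to 111000 CPM at 0 h. Their part in these results was not tested. The alpha cell sum was also lower at 3 h, at 625 to 1740 CPM in EIF2A cells and 862 to 984 CPM in GFP cells, against 1370 to 2470 CPM and 1430 to 1800 CPM at 0 h.

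**Figure D2:**
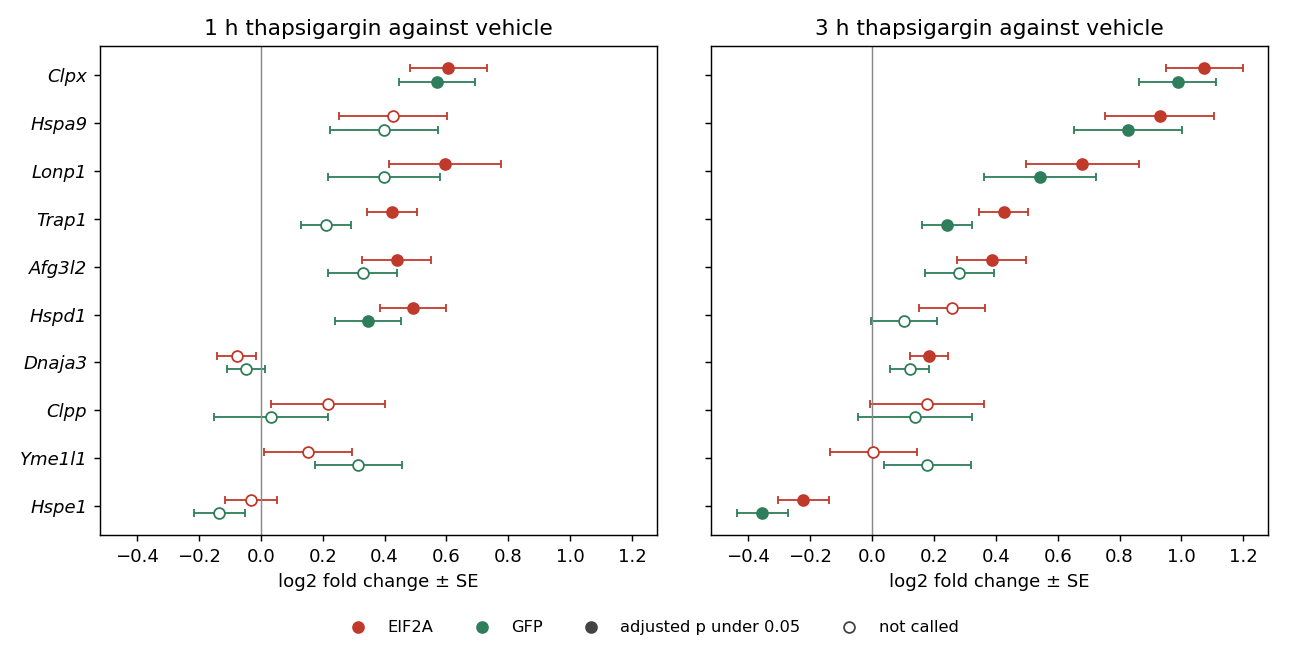
Log2 fold change ± SE of each mRNA at 1 h (left) and 3 h (right) of thapsigargin against vehicle, with EIF2A above GFP for each gene. Filled points passed an adjusted p of 0.05 in edgeR's quasi-likelihood test with 4 libraries a group, and open points did not. Clpx lies furthest to the right in both panels, and Hspe1 furthest to the left at 3 h. At 1 h Lonp1, Trap1 and Afg3l2 are filled in EIF2A and open in GFP, with the EIF2A point further right, while Yme1l1 lies further right in GFP. No difference in response between constructs was called in this fit.

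Hspa9, the matrix HSP70 that works at the inner end of the import channel and also ties mitochondria to ER calcium release channels, rose at 3 h in both constructs. Its levels in EIF2A replicates 1 to 4, the order kept below, were 338, 285, 273 and 258 CPM at 0 h, 456, 378, 372 and 344 CPM at 1 h, and 593, 572, 564 and 468 CPM at 3 h. In GFP cells they were 468, 283, 281 and 281 CPM at 0 h, 599.6, 386, 380 and 364 CPM at 1 h, and 715, 562, 546 and 506 CPM at 3 h. Every library at 3 h was above every library at 0 h of its construct, and replicate 1 labelled GFP stood above its group at each time. At 3 h the log2 fold change was 0.93 ± 0.18 in EIF2A cells (SE, adjusted p = 0.000274) and 0.83 ± 0.18 in GFP cells (adjusted p = 0.000919). At 1 h it was 0.43 ± 0.17 (adjusted p = 0.13) and 0.40 ± 0.17 (adjusted p = 0.196), which passed the test with the block (0.43 ± 0.05 and 0.40 ± 0.05, adjusted p = 3.87e-07 and 8.62e-07). Without replicate 1 the 1 h change was 0.42 ± 0.07 in each construct, again past the test.

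Dnaja3, a J-protein that stimulates the ATPase of matrix HSP70, moved late and little. It was at 101 to 108 CPM at 0 h, 97.9 to 102 CPM at 1 h and 114 to 122 CPM at 3 h in EIF2A libraries, and at 104 to 126, 104 to 117 and 117 to 128 CPM in GFP libraries. At 3 h it rose in EIF2A cells by 0.18 ± 0.06 on the log2 scale (adjusted p = 0.0232), and was 0.12 ± 0.06 higher in GFP cells (adjusted p = 0.143). The GFP value passed without replicate 1 (0.20 ± 0.04, adjusted p = 0.000679) and with the block (0.13 ± 0.05, adjusted p = 0.0277). The EIF2A call did not pass without EIF2A 0 h replicate 1, 3 h replicate 2 or 3 h replicate 3 (adjusted p = 0.0596, 0.059 and 0.0542), nor with a correction for exonic length (0.14, adjusted p = 0.104). Reads of Dnaja3 may be shared with Vasn on the same strand and Coro7 on the other, since their exons overlap by 160 and 153 bases.

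HSP60, from Hspd1, forms the chaperonin barrel, and HSP10, from Hspe1, its lid, and their genes lie head to head on chromosome 1. In GRCm38 Hspd1 spans chr1:55077835-55088243 on the minus strand and Hspe1 chr1:55088132-55091307 on the plus strand, with 112 exon bases in common. The library kit kept the strand, but how the counting treated strand is not given in the sources used here, and reads in that overlap may be counted for either gene. RefSeq puts 216 bases between the start of a shorter Hspd1 transcript (55087932) and that of Hspe1 (55088148). RefSeq also gives Hspd1 a start at 55088243, and the stretch below lies downstream of that start. It precedes the start of the shorter Hspd1 transcript and that of Hspe1, and is shown for that reason. The stretch is chr1:55088053-55088082 of GRCm38.p6, on the Hspe1 strand, with its heat shock elements in capitals.
Hspe1 and Hspd1: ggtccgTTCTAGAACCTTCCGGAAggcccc
The capitals hold overlapping matches, searched on both strands, to a heat shock element of 3 units, in which GAA and TTC take turns with 2 bases between them, from -89 to -72 of the Hspe1 start. Such a match was found in 0.603% of 32851 RefSeq promoter windows of 300 bases, and in no window of the other members.

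Although their genes lie head to head, Hspd1 and Hspe1 mRNA did not move together. Hspd1 was at 177, 147, 141 and 141 CPM at 0 h, 249, 204, 204 and 196 CPM at 1 h and 228, 173, 172 and 152 CPM at 3 h in EIF2A libraries. In GFP libraries it was at 169, 192, 184 and 183 CPM at 0 h, 212, 243, 241 and 229 CPM at 1 h and 183, 199, 208 and 193 CPM at 3 h. Each of the 8 series of libraries, 1 per construct and replicate, was highest at 1 h. At 1 h the log2 fold change was 0.49 ± 0.11 in EIF2A cells (adjusted p = 0.00479) and 0.35 ± 0.11 in GFP cells (adjusted p = 0.0488). The GFP call did not pass without any 1 of 7 of the 8 libraries compared, GFP 1 h replicate 1 being the exception (adjusted p from 0.0782 to 0.139), but passed with the block (adjusted p = 5.88e-07) and without replicate 1 (adjusted p = 3.11e-05). With other scaling, no filter or the length correction it did not pass (adjusted p from 0.0538 to 0.145), and the EIF2A call did not pass without all libraries of replicate 2, 3 or 4 (adjusted p from 0.0528 to 0.137). At 3 h Hspd1 was 0.26 ± 0.11 higher in EIF2A cells (adjusted p = 0.066) and 0.10 ± 0.11 higher in GFP cells (adjusted p = 0.506), and both passed with the block (0.25 ± 0.05 and 0.10 ± 0.04, adjusted p = 2.22e-05 and 0.0419).

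Hspe1 fell at 3 h in both constructs. It was the only one of the 10 mRNAs called lower at that time over all 4 replicates, while Yme1l1 joined it in EIF2A cells with the block and without replicate 1 (-0.12 ± 0.05). Hspe1 was at 96.6, 109, 105 and 103 CPM at 0 h, 91.0, 106, 107 and 102 CPM at 1 h and 87.6, 91.0, 92.6 and 83.5 CPM at 3 h in EIF2A libraries. In GFP libraries it was at 83.5, 107, 103 and 100 CPM at 0 h, 79.9, 94.6, 97.3 and 87.7 CPM at 1 h and 68.9, 81.8, 80.1 and 77.7 CPM at 3 h. Every library at 3 h was below every library at 0 h of its construct. In EIF2A cells the log2 fold change was -0.22 ± 0.08 (adjusted p = 0.0426), a call that did not pass without any 1 of 7 of the 8 libraries, EIF2A 0 h replicate 1 being the exception. In GFP cells it was -0.35 ± 0.08 (adjusted p = 0.00225). The size depended on the scaling: by library totals, which raised the median of all genes at 3 h by 0.159 in EIF2A cells and 0.118 in GFP cells, Hspe1 changed by -0.06 (adjusted p = 0.681) and -0.24 (adjusted p = 0.0618). With a correction for exonic length the values were -0.10 in EIF2A cells and -0.23 in GFP cells (adjusted p = 0.423 and 0.0538).

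The ratio of Hspd1 to Hspe1, in CPM per kb, does not depend on library scaling. The pair was set side by side after its values were seen, so the ratio is given without a test. It was 1.02, 0.753, 0.751 and 0.764 at 0 h, 1.53, 1.08, 1.07 and 1.08 at 1 h and 1.46, 1.06, 1.03 and 1.02 at 3 h in EIF2A libraries. In GFP libraries it was 1.13, 0.998, 0.994 and 1.02 at 0 h, 1.48, 1.43, 1.38 and 1.45 at 1 h and 1.48, 1.36, 1.45 and 1.39 at 3 h. The log2 ratio was higher at 1 h and at 3 h than at 0 h in 8 of 8 series, by 0.50 ± 0.05 and 0.46 ± 0.05 (mean ± SD). With the length correction and the block the increases were 0.44 and 0.33.

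**Figure D3:**
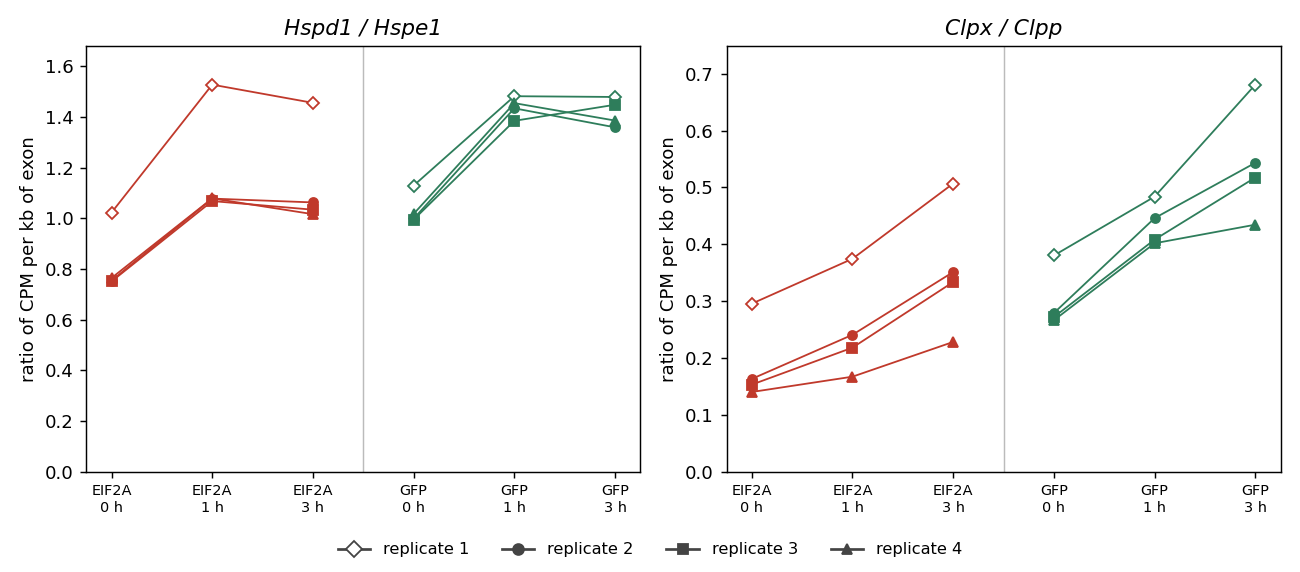
Ratio of CPM per kb of exon between partner mRNAs, Hspd1 over Hspe1 (left) and Clpx over Clpp (right), with 1 line per replicate over 0, 1 and 3 h and EIF2A left of GFP. Hspd1 over Hspe1 steps up by 1 h and then stays near that level, while Clpx over Clpp is highest at 3 h in all 8 series.

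Trap1, the mitochondrial HSP90, rose in both constructs at 3 h. In EIF2A libraries it was at 49.5 to 55.7 CPM at 0 h, 61.6 to 76.9 CPM at 1 h and 61.1 to 75.7 CPM at 3 h, and in GFP libraries at 51.5 to 55.9, 57.9 to 64.7 and 57.2 to 66.6 CPM. The treated libraries of each construct lay above its vehicle libraries at both times. The log2 fold change in EIF2A cells was 0.42 ± 0.08 at 1 h and 0.43 ± 0.08 at 3 h (adjusted p = 0.00173 and 0.000272), and the 1 h call did not pass without all libraries of replicate 2 or 3 (adjusted p = 0.0848 and 0.0743). In GFP cells it was 0.21 ± 0.08 at 1 h and 0.24 ± 0.08 at 3 h (adjusted p = 0.119 and 0.0232). The 1 h value passed with the block (adjusted p = 0.000878) and without replicate 1 (adjusted p = 0.00375), while the 3 h value did not pass without any 1 of 5 libraries (GFP 0 h replicates 1 and 4, GFP 3 h replicates 2, 3 and 4, adjusted p from 0.0545 to 0.0683), nor with RLE factors (adjusted p = 0.0501). Trap1 shares 54 exon bases with Dnase1 on the other strand.

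Lonp1 encodes the LON protease, the ATP-driven protease that clears damaged protein from the matrix. Its levels in EIF2A libraries were 166, 133, 145 and 145 CPM at 0 h, 184, 221, 229 and 257 CPM at 1 h and 212, 230, 230 and 272 CPM at 3 h. In GFP libraries they were 236, 137, 139 and 139 CPM at 0 h, 297, 187, 181 and 194 CPM at 1 h and 304, 206, 215 and 223 CPM at 3 h. Lonp1 was higher at 1 h and 3 h than at 0 h in 8 of 8 series, but the GFP groups overlapped, with replicate 1 the highest library at each time. In EIF2A cells the log2 fold change was 0.60 ± 0.18 at 1 h and 0.68 ± 0.18 at 3 h (adjusted p = 0.039 and 0.00537). In GFP cells it was 0.40 ± 0.18 at 1 h and 0.54 ± 0.18 at 3 h (adjusted p = 0.214 and 0.0249). Without replicate 1 these were 0.74 ± 0.07, 0.79 ± 0.07, 0.44 ± 0.07 and 0.63 ± 0.07 in the same order, and all passed (adjusted p from 5.4e-09 to 4.15e-05). The EIF2A call at 1 h did not pass without any 1 of the 6 libraries of EIF2A 0 h and 1 h replicates 2 to 4 (adjusted p from 0.082 to 0.116). The GFP call at 3 h did not pass without GFP 0 h replicate 2, 3 or 4 or 3 h replicate 1 (adjusted p from 0.0799 to 0.101). The EIF2A call at 3 h did not pass without all libraries of replicate 2, 3 or 4 (adjusted p = 0.0599, 0.053 and 0.0715). With the length correction neither the EIF2A call at 1 h nor the GFP call at 3 h passed (adjusted p = 0.0603 and 0.0572).

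Clpx, the ring that recognises and unfolds proteins for the ClpP protease, changed most of the 10 at 3 h in both constructs. It was at 61.8, 48.3, 49.9 and 46.4 CPM at 0 h, 79.7, 85.7, 79.5 and 69.9 CPM at 1 h and 106, 116, 114 and 98.6 CPM at 3 h in EIF2A libraries. In GFP libraries it was at 77.7, 54.9, 53.2 and 54.3 CPM at 0 h, 101, 87.1, 85.5 and 82.9 CPM at 1 h and 143, 113, 115 and 105 CPM at 3 h. Within a construct, the libraries of the 3 times did not overlap. The log2 fold change at 3 h was 1.07 ± 0.12 in EIF2A cells (adjusted p = 1.08e-06), which is 2.10-fold. In GFP cells it was 0.99 ± 0.12 (adjusted p = 3.35e-06), which is 1.98-fold. At 1 h it was 0.61 ± 0.12 in EIF2A cells and 0.57 ± 0.12 in GFP cells (adjusted p = 0.0031 and 0.0059). None of the 1 h and 3 h calls of Clpx against 0 h was lost when a single library was left out. Without all 6 libraries of replicate 2 or 3, those at 1 h did not pass (adjusted p from 0.112 to 0.198), nor did the GFP call without those of replicate 4 (adjusted p = 0.0607).

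Clpp, the proteolytic chamber that Clpx feeds, was not called at 1 h or 3 h over all 4 replicates. In EIF2A libraries it was at 73.2, 104, 114 and 116 CPM at 0 h, 74.5, 125, 127 and 146 CPM at 1 h and 73.5, 116, 119 and 151 CPM at 3 h. In GFP libraries it was at 68.5 to 71.5 CPM at 0 h, 68.4 to 73.3 CPM at 1 h and 72.8 to 84.7 CPM at 3 h. At 3 h the log2 fold change was 0.18 ± 0.18 in EIF2A cells and 0.14 ± 0.18 in GFP cells (adjusted p = 0.5 and 0.619). With the block it passed in EIF2A cells at 1 h (0.20 ± 0.05, adjusted p = 0.00391) and 3 h (0.15 ± 0.05, adjusted p = 0.0135) and in GFP cells at 3 h (0.14 ± 0.05, adjusted p = 0.0254). Without replicate 1 it passed in EIF2A cells at 1 h (0.26, adjusted p = 0.0221) and 3 h (0.21, adjusted p = 0.0399), and with the length correction in EIF2A cells at 3 h (0.35, adjusted p = 0.0441). Clpp was higher at 3 h than at 0 h in 8 of 8 series. Clpx and Clpp were also paired after their values were seen, so their ratio is given without a test. The log2 ratio of Clpx to Clpp was higher than at 0 h in 8 of 8 series, by 0.48 ± 0.15 at 1 h and 0.89 ± 0.17 at 3 h (mean ± SD).

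The promoters of Trap1, Lonp1 and Clpx are shown because these 3 mRNAs rose at 3 h in both constructs. RefSeq promoter windows, from 250 bases before to 50 after the start in GRCm38.p6, matched 8 of the 10 genes. Hspa9, which also rose at 3 h in both constructs, and Afg3l2 had no window. Both strands were searched for TGATGNAA, the core of the element that ATF4 binds with C/EBP partners, for the cAMP response element TGACGTNA and for the E-box CACGTG. Over 32851 windows these were present in 3.97%, 2.93% and 7.15%. The Trap1 stretch chr16:4077828-4078060, minus strand, has TGACGTCA from -47 to -40 of its start, in capitals.
Trap1: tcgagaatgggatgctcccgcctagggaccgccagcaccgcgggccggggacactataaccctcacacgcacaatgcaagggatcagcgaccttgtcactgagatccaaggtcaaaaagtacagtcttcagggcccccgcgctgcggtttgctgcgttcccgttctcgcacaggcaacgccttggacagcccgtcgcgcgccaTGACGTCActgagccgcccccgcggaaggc
The Lonp1 stretch chr17:56626904-56627153, minus strand, has the E-box from -36 to -31 and ends in a cAMP response element whose last base is the first of the transcript, both in capitals.
Lonp1: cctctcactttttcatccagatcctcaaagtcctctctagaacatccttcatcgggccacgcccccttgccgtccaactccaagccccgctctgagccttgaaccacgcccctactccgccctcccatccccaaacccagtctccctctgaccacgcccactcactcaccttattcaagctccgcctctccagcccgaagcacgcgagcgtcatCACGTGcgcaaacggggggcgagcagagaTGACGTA
The Clpx stretch chr9:65294010-65294259, plus strand, held none of the motifs searched, so it has no capitals.
Clpx: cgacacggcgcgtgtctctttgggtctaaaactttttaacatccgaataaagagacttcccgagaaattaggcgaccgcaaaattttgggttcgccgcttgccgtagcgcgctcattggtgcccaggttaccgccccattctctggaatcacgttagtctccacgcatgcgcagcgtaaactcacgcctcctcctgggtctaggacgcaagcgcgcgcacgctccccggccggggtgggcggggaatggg
The ATF4 core was in none of the 9 windows of these 8 genes. As 3.97% of all windows hold it, its absence from so few says little about the members. An E-box was also found from -80 to -75 of the Hspd1 start at 55088243, and Hspd1 was not called at 3 h in the 6 group means. These matches describe letters in the windows and do not show binding.

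Afg3l2 and Yme1l1 encode inner membrane proteases that face opposite sides, the matrix for AFG3L2 and the intermembrane space for YME1L1. Afg3l2 was at 79.0 to 80.6 CPM at 0 h, 97.6 to 115 CPM at 1 h and 93.3 to 115 CPM at 3 h in EIF2A libraries, with no overlap between vehicle and treated libraries. In GFP libraries it was at 74.3 to 99.9 CPM at 0 h, 92.0 to 127 CPM at 1 h and 89.1 to 119 CPM at 3 h, where the ranges overlapped and replicate 1 was highest. It rose in EIF2A cells by 0.44 ± 0.11 at 1 h and 0.39 ± 0.11 at 3 h on the log2 scale (adjusted p = 0.0147 and 0.00964). Neither call passed with the length correction (adjusted p = 0.0713 and 0.122) or without all libraries of replicate 2, 3 or 4 (adjusted p from 0.0765 to 0.211). In GFP cells it was 0.33 ± 0.11 higher at 1 h and 0.28 ± 0.11 higher at 3 h (adjusted p = 0.0761 and 0.0567), and both passed without replicate 1 (0.32 ± 0.05 and 0.29 ± 0.05, adjusted p = 8.09e-05 and 7.18e-05).

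Yme1l1 passed the test in no comparison of the 6 group means. It was at 125 to 153 CPM at 0 h, 129 to 193 CPM at 1 h and 100 to 186 CPM at 3 h in EIF2A libraries, and at 138 to 154, 169 to 202 and 143 to 188 CPM in GFP libraries. At 1 h it was higher in 8 of 8 series, with log2 fold changes of 0.15 ± 0.14 in EIF2A cells and 0.32 ± 0.14 in GFP cells (adjusted p = 0.603 and 0.209). The GFP change passed with the block (0.31 ± 0.06, adjusted p = 9.41e-05) and without replicate 1 (0.29 ± 0.09, adjusted p = 0.0192). At 3 h it was higher in 5 of 8 series, with log2 fold changes of 0.00 ± 0.14 in EIF2A cells and 0.18 ± 0.14 in GFP cells.

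Between 1 and 3 h of thapsigargin the share of the members called was near that of all genes. Clpx rose further, by 0.47 ± 0.12 in EIF2A cells and 0.42 ± 0.12 in GFP cells (adjusted p = 0.013 and 0.034), and Dnaja3 rose in EIF2A cells (0.26 ± 0.06, adjusted p = 0.00645). These made 2 calls among the 10 in EIF2A cells and 1 in GFP cells, where 14.9% of all genes (8.28% rose, 6.62% fell) and 9.77% (5.49% rose, 4.28% fell) were called. With the block 3 rose and 3 fell in each construct, where 52.7% and 49.7% of all genes were called. Hspa9, Clpx and Dnaja3 were the 3 that rose, and Hspd1, Hspe1 and Yme1l1 the 3 that fell. Hspa9 changed by 0.51 ± 0.05 in EIF2A cells and 0.45 ± 0.05 in GFP cells, Hspd1 by -0.24 ± 0.04 in both and Hspe1 by -0.19 ± 0.05 and -0.22 ± 0.05. Lonp1, Trap1, Clpp and Afg3l2 were not called in either construct, with changes of -0.05 to 0.16.

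Between constructs, none of the 10 passed edgeR's test at any time over all 4 replicates, where 0.0218%, 1.02% and 0% of all genes were called at 0, 1 and 3 h. An unadjusted p under 0.05 was found for Hspd1 and Clpp at 0 h, Clpp at 1 h and Hspe1 and Clpp at 3 h, and DESeq2 called Clpp at 1 h alone. The share of all genes that passed either of these rules is not given here, so they are not a result about the members. Clpp came nearest in edgeR, with EIF2A over GFP at 0.54 ± 0.19, 0.72 ± 0.19 and 0.57 ± 0.18 on the log2 scale (adjusted p = 0.136, 0.0517 and 0.178). In replicates 2 to 4 Clpp averaged 111 ± 6.59, 133 ± 11.9 and 129 ± 19.5 CPM in EIF2A cells at 0, 1 and 3 h, against 69.6 ± 1.56, 71.3 ± 2.59 and 78.4 ± 5.98 CPM in GFP cells (SD, n = 3). In replicate 1 it was at 73.2 to 74.5 CPM in libraries labelled EIF2A and 71.5 to 73.5 CPM in those labelled GFP. Clpp thus differed between labels in 3 of 4 replicates, and its level in replicate 1 was like that of GFP cells under both labels.

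Without replicate 1 the libraries left in a group lay close together, and the constructs differed in most genes. Of all genes, 64.8%, 70.0% and 67.6% were called at 0, 1 and 3 h, so a call of a member was not unusual. At 0 h Clpp was higher (0.67 ± 0.09) and Hspd1 lower (-0.38 ± 0.05) in EIF2A cells, which made 2 of the 10. At 1 h 5 were higher (Clpp, Lonp1, Afg3l2, Trap1 and Hspe1) and 2 lower (Hspd1 and Yme1l1), and the same 7 were called the same way at 3 h. Their log2 differences at 3 h were 0.72 ± 0.09 for Clpp, 0.21 ± 0.05 for Afg3l2, 0.18 ± 0.07 for Lonp1, 0.16 ± 0.05 for Hspe1 and 0.14 ± 0.06 for Trap1. Those of Hspd1 and Yme1l1 at 3 h were -0.27 ± 0.05 and -0.31 ± 0.09. For Hspd1, Lonp1 and Afg3l2 the replicate 1 pair went the other way at 1 and 3 h. Hspa9, Dnaja3 and Clpx were not called at any time (differences of -0.17 to 0.00).

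**Figure D4:**
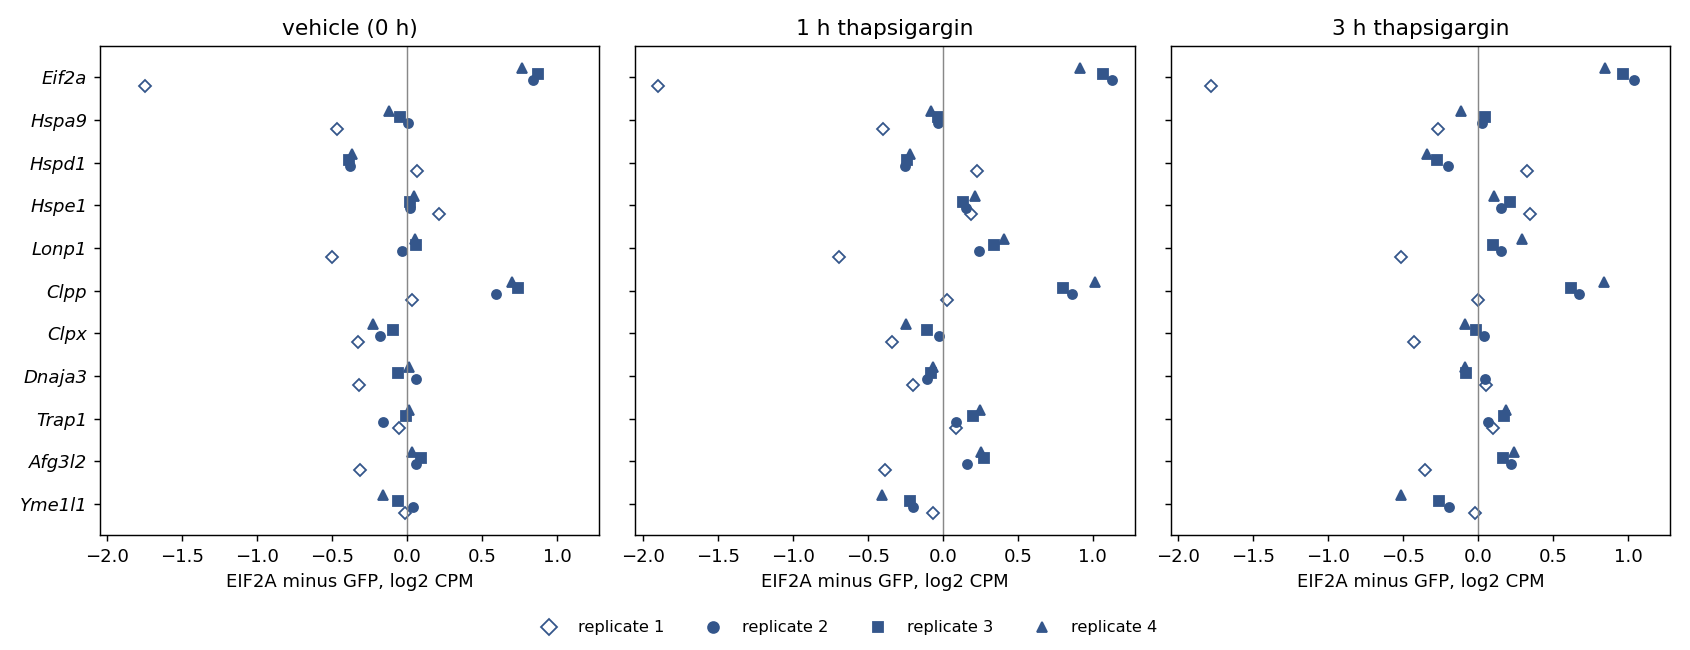
Difference in log2 CPM between the libraries labelled EIF2A and GFP of each replicate number, for Eif2a and the 10 mRNAs, at 0 h (left), 1 h (middle) and 3 h (right). Open diamonds are replicate 1 and filled symbols replicates 2 to 4. Eif2a lies far to the left in replicate 1 and to the right in the others, and Clpp lies near 0 in replicate 1 and to the right in the others.

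The responses to thapsigargin were also compared directly, as the change in EIF2A cells minus that in GFP cells. None of the 10 was called at 1 h or 3 h, with the block or without replicate 1, by edgeR, nor by DESeq2 over all replicates. The share of all genes called at 1 h and 3 h was 0% over 4 replicates, 0.00727% and 0.0145% with the block, and 0.816% and 4.12% without replicate 1. With all replicates the differences ran from -0.16 to 0.21 at 1 h and from -0.17 to 0.18 at 3 h, each with an SE of 0.09 to 0.26, and no member had an unadjusted p under 0.05. With the block and without replicate 1, where 7.62% and 14.2% of all genes were called, 3 differences passed. The 1 h response was larger in EIF2A cells for Lonp1 (0.30 ± 0.06, adjusted p = 0.00118) and Trap1 (0.23 ± 0.07, adjusted p = 0.036), and the 3 h response of Yme1l1 was lower (-0.26 ± 0.07, adjusted p = 0.0092). Clpx and Hspa9, the pair with the highest responses at 3 h, differed between constructs by 0.15 ± 0.07 and 0.04 ± 0.05 in that fit (adjusted p = 0.136 and 0.684).

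Other genes of mitochondrial protein handling were counted at 3 h, where 36.2% of all genes were called in EIF2A cells and 33.0% in GFP cells, and no difference between lists was tested. Among 11 HSP70 cofactors and other matrix chaperones, 2 rose and 1 fell in each construct (median 0.04 in EIF2A cells and -0.03 in GFP cells, beside -0.01 and -0.00 over all genes). Timm44, which anchors matrix HSP70 to the import channel, rose by 0.78 ± 0.14 and 0.54 ± 0.13, and Clpb, a disaggregase, by 0.70 ± 0.19 and 0.64 ± 0.19. Dnajc19, a J-protein of the inner membrane, changed by -0.43 ± 0.09 and -0.42 ± 0.09. Among 16 other proteases and their scaffolds, 8 rose and 2 fell in EIF2A cells and 6 rose and 1 fell in GFP cells (median 0.26 and 0.19). Mipep and Pmpcb, which trim imported proteins, rose by 1.01 ± 0.14 and 0.61 ± 0.11 in EIF2A cells and by 0.69 ± 0.14 and 0.41 ± 0.11 in GFP cells. Oma1, a protease activated by membrane stress, rose by 0.78 ± 0.17 and 0.85 ± 0.17. Phb, a prohibitin that rings the AFG3L2 protease, fell, with changes of -1.48 ± 0.15 and -1.21 ± 0.14.

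Of 22 import channel mRNAs, 8 fell in each construct, and 1 rose in EIF2A cells and 0 in GFP cells (median -0.18 and -0.20). Tomm7 and Tomm6, small subunits of the outer channel, changed by -0.94 ± 0.08 and -0.84 ± 0.09 in EIF2A cells and by -0.91 ± 0.08 and -0.74 ± 0.09 in GFP cells. Tomm22, a receptor of that channel, changed by -0.72 ± 0.07 and -0.49 ± 0.07, and Timm17a, a core subunit of the inner channel, by -0.72 ± 0.07 and -0.58 ± 0.06. Without replicate 1 the counts were 4 higher and 11 lower in EIF2A cells and 5 higher and 11 lower in GFP cells, where 62.6% and 63.0% of all genes were called.

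Of 12 regulators named with this response, 6 rose and 1 fell in EIF2A cells and 5 rose and 1 fell in GFP cells (median 0.46 and 0.36). Atf4 rose by 0.65 ± 0.10 and 0.81 ± 0.10, and Nrf1, a regulator of mitochondrial genes, by 0.47 ± 0.07 and 0.46 ± 0.07. For the CHOP gene Ddit3 the increases were 1.70 ± 0.28 and 2.03 ± 0.28. Atf5 was not called, at -0.18 ± 0.27 and -0.01 ± 0.27. Of 16 targets of the integrated stress response, 13 rose in EIF2A cells and 14 in GFP cells and none fell (median 1.20 and 1.26). Some of these are mitochondrial or one-carbon genes and others, such as Sesn2 and Chac1, are not. Sesn2 rose by 1.84 ± 0.10 and 2.03 ± 0.10, and Chac1 by 2.73 ± 0.22 and 2.97 ± 0.22. The mitochondrial enzymes Aldh18a1 and Mthfd2 rose by 1.16 ± 0.10 and 0.87 ± 0.08 in EIF2A cells and by 1.32 ± 0.10 and 1.12 ± 0.08 in GFP cells.

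Relatives of the members in other compartments were counted in the same way. Of 8 ER chaperones, only Hsp90b1, the ER HSP90, rose at 3 h (0.40 ± 0.08 in EIF2A cells and 0.53 ± 0.08 in GFP cells), and Hspa5, the ER HSP70, was at 0.13 ± 0.16 and 0.29 ± 0.16 (adjusted p = 0.577 and 0.183). Without replicate 1, 1 rose and 3 fell in EIF2A cells and 4 rose and 0 fell in GFP cells, beside the same 62.6% and 63.0% of all genes. Of 13 cytosolic chaperones, 2 rose and 4 fell in EIF2A cells and 1 rose and 0 fell in GFP cells. Without replicate 1, 3 of these rose and 7 fell in EIF2A cells and 2 rose and 5 fell in GFP cells. Hspa4, an HSP70 relative, rose by 0.46 ± 0.10 and 0.39 ± 0.10, and Hspa1a, the heat-inducible HSP70, changed by -0.85 ± 0.24 (adjusted p = 0.00776) and -0.49 ± 0.24 (adjusted p = 0.122). Hsf1, the heat shock factor, was called in EIF2A cells (0.46 ± 0.14, adjusted p = 0.0105) and not in GFP cells (0.30 ± 0.13, adjusted p = 0.0897). Its responses differed between constructs by 0.16 ± 0.19 (adjusted p = 1).

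The members were last compared by their pattern over the 24 libraries, after the mean of each construct and replicate was taken off. These r values describe libraries that share the time course, and no p is given. Hspa9 and Clpx ran most closely together (r = 0.976), followed by Lonp1 with Trap1 (0.959) and Trap1 with Afg3l2 (0.954). Hspe1 ran against Hspa9 (-0.916) and was nearly unrelated to Hspd1 (-0.0939). Among 10908 genes that averaged 5 CPM or more, those most like Hspe1 were Ndufa5, Uqcrb and Ndufb10, nuclear genes of respiratory complexes (r = 0.978, 0.974 and 0.972). Those most like Clpx were Zufsp, Nufip1 and Ezh2 (0.996, 0.995 and 0.995), and those most like Hspa9 were Wbp11, Tdp2 and Kcmf1 (0.993, 0.992 and 0.992). Hspd1 was most like Nrd1, Scg3 and Atp5a1 (0.974, 0.968 and 0.967), and Lonp1 like Eif3d, Sart1 and Ssrp1 (0.989, 0.987 and 0.987). Trap1 was most like Smarcb1, Thoc5 and Chaf1b (0.983, 0.981 and 0.977) and Afg3l2 like Mapk8ip2, Letm1 and Tufm (0.986, 0.981 and 0.978). The closest genes were less alike for Dnaja3 (Uhrf1bp1, Psat1 and Phf10, 0.929 to 0.934), Clpp (Rhpn1, B3galt4 and Mecr, 0.912 to 0.926) and Yme1l1 (Dpp4, Gpd2 and Iqgap1, 0.916 to 0.918).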

How the data were processed

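The table holds raw counts, whole numbers per gene that the authors deposited with no normalization, from stranded TruSeq libraries per the labels' protocols. Tools named in the submitters' processing notes are bcl2fastq and STAR, with build mm10. No source used here gives the counting program, its strand setting or its annotation. Columns were matched to libraries through the labels, and 2 lines that name no gene (11.3 to 18.4% of counts) were left out. One model of 6 group means was fitted to all 24 libraries with edgeR 4.0.16 (R 4.3.3), after TMM scaling and a filter at a minimum count of 10 and a minimum total of 15. It left 18 residual degrees of freedom, and contrasts were tested by quasi-likelihood. P-values were adjusted by Benjamini-Hochberg over the 13761 genes of each of 11 contrasts, and "rose" and "fell" mean an adjusted p under 0.05. Values are log2 fold changes ± SE unless named otherwise. The same steps were also run on simulated counts, drawn independently for each library. Those counts held no shared deviation of same-numbered libraries and no replicate 1 that stood apart. They therefore cannot show how the calls behave with these features.

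Replicate numbers were used as a block within a construct (12 residual degrees of freedom), because same-numbered libraries deviated together (r from 0.675 to 0.956). Between constructs r was -0.601 to 0.000759. Alternatives were other scalings, no filter, DESeq2 1.42.0, an exonic length offset (96.3% of genes had a length) and leaving libraries out. Gene positions and exonic lengths came from GENCODE M21 (GRCm38, the same build as mm10) and promoters from RefSeq (GRCm38.p6). Reads carry no molecular identifiers. All 10 members are named in every contrast, and from each other list up to 3 genes with the smallest p at 3 h in either construct. Hspa5, Atf5 and Hsf1 were added after their values were seen. The members and lists were chosen with earlier results of these data known.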

Additional observations from a re-analysis of the deposited data

Results flagged for a closer look

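In each of 60 groups of 4 libraries (10 genes, 6 groups), the highest or lowest library was compared with the other 3 by its gap over the range of the group, and set against Dixon's critical value. Chance alone passes it in about 1 of 20 groups, and 10 of 60 passed. In 9 of them the library was replicate 1. Hspa9 was at 468 CPM in GFP replicate 1 at 0 h, where the others were at 281 to 283 CPM, and at 599.6 CPM at 1 h, where the others were at 364 to 386 CPM. Lonp1 was at 236, 297 and 304 CPM in GFP replicate 1 at 0, 1 and 3 h, where the others were at 137 to 139, 181 to 194 and 206 to 223 CPM. Clpx was at 77.7 CPM in GFP replicate 1 at 0 h, with the others at 53.2 to 54.9 CPM. At 1 h in GFP replicate 1, Dnaja3 was at 117 CPM and Afg3l2 at 127 CPM, with the others at 104 to 105 and 92.0 to 97.3 CPM. Hspd1 was at 249 CPM in EIF2A replicate 1 at 1 h, with the others at 196 to 204 CPM. The exception was replicate 4 of EIF2A at 3 h, where Dnaja3 was low at 114 CPM, with the others at 121 to 122 CPM.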

How the results depend on the processing

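Leaving out 1 library, or 1 replicate number, moved the count of members called to 0 to 7 (EIF2A 1 h), 3 to 9 (EIF2A 3 h), 0 to 5 (EIF2A 3 h against 1 h), 0 to 8 (GFP 1 h), 3 to 7 (GFP 3 h) and 0 to 6 (GFP 3 h against 1 h). Between constructs it gave 0 to 2, 0 to 7 and 0 to 7 at 0, 1 and 3 h, and 0 to 0 for the difference in response at both times. With the replicate block, the counts that moved most were 6 in EIF2A and 6 in GFP cells at 3 h against 1 h, 8 at GFP 1 h, 10 at GFP 3 h, and 1, 3 and 2 between constructs, whose numbers do not pair. The block without replicate 1 gave 8 (EIF2A 1 h), 6 and 8 (3 h against 1 h, EIF2A and GFP), 8 and 10 (GFP 1 h and 3 h), 3, 8 and 7 between constructs, and 2 and 1 for the difference in response. The length offset gave 3 (EIF2A 1 h), 1 (GFP 1 h) and 3 (GFP 3 h), and with the block 8, 7 and 7 (EIF2A 1 h, GFP 1 h, each construct at 3 h against 1 h) and 1 between constructs at 1 h. GFP 1 h fell to 1 with RLE factors and with no filter. GFP 3 h against 1 h was 3 by library totals, 0 with no filter and 2 with DESeq2, which also called 1 between constructs at 1 h. The cause was not tested. Signs turned for Yme1l1 in EIF2A cells at 3 h (-0.12, block without replicate 1), Clpp in EIF2A cells between 1 and 3 h (0.12, length offset with block) and Lonp1 between constructs at 3 h (0.18, without replicate 1, with or without the block, and -0.11 to 0.18 over all libraries left out). Over all genes, the count called at EIF2A 1 h was 1444 in the 6 group means, 139 to 5762 with libraries left out and 6232 with the block, and at GFP 1 h 1125, 91 to 5413 and 6132. At 3 h it was 4985, 2736 to 8598 and 9105 in EIF2A cells and 4543, 2348 to 8648 and 9234 in GFP cells. At 3 h against 1 h it was 2051, 270 to 6740 and 7247 in EIF2A cells and 1345, 121 to 5798 and 6834 in GFP cells. Between constructs, leaving libraries out gave 0 to 8904, 0 to 9609 and 0 to 9279 at 0, 1 and 3 h. For the difference in response it gave 0 to 112 at 1 h and 0 to 566 at 3 h. Where no share of all genes is given, a count of members is not a result about the members. Each of the 10 members had at least 450 counts a library, and depth as a limit on the calls was not tested.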
